A study of Mus musculus with 2 samples.

Results

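Cluster 5 is one of 11 groups of cells that the authors drew from mouse gastric adenocarcinomas, and it paired genes of mast cell granules with genes of epithelium. Its members here are all genes that the authors' deposited table gives under cluster 5, 3765 of the 18319 genes named under any cluster, which is 20.6%. The genes Tpsb2, Tpsab1, Cpa3, Prom1 and Cdh1 served as its markers, and all 5 were raised there. The cells came from 2 tumors in female mice of the NuJ strain. A cystic adenocarcinoma was taken 10 weeks after injection of DP-DSCs, and a tubular adenocarcinoma was taken 13 weeks after injection of DP-DSCs. Both tumors thus share the injected cells, the host strain and the sex, and the time since injection moves with the tumor type. Fresh tissue was dissociated, single cells were captured in droplets on the inDrop platform, and 1 library was made per tumor type. The labels do not expand DP-DSC, do not say how many mice or clones stood behind a tumor, and call the cells of both libraries tumor cells.

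Mast cells are tissue immune cells that store proteases in granules. Tryptases and carboxypeptidase A3 are carried there together with chymases, bound to the proteoglycan serglycin, and are released when the receptor for IgE or other triggers fire. Epithelial cells, in contrast, are joined by E-cadherin and tight junction proteins and hold keratin filaments, and the lining of the stomach is built from them.

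The deposited values are linear folds of each gene in a cluster, and the table lists a gene under a cluster only above a fold of 1.5. A gene is called listed where the authors' deposited table gives it under cluster 5, and raised where its deposited fold is at least 2 and its deposited p at most 0.05. What the fold is relative to is not written in the table, and genes lower in cluster 5 than elsewhere are not in it. With 1 library per tumor type the p can only compare cells, which are not replicates, so it served only to filter and order genes. The table merges both tumors, so the values below are 1 fold per gene and cluster with no replicate error, and cystic and tubular cells were not compared. The sources used here do not give the number of cells in cluster 5 or their depth, and the precision of a fold is therefore unknown. Whether the clusters share cells in their references is therefore not known, and folds of a gene in several clusters are set side by side without a test.

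Of the named genes, 792 were raised in cluster 5, or 4.32%, in the authors' deposited table. The raised share differed widely among the other 10 clusters in the authors' deposited table. It was 1.82% for cluster 1, 2.89% for cluster 2, 3.42% for cluster 7, 4.0% for cluster 3 with 733 genes, 4.90% for cluster 10 and 6.36% for cluster 8, and reached 17.0% for cluster 11, 18.6% for cluster 4, 20.3% for cluster 6 and 26.6% for cluster 9, in the authors' deposited table. Cluster 5 therefore stood among the clusters with fewer raised genes. The folds of its raised genes were high: the median was 7.18, with quartiles of 3.90 and 13.8, in the authors' deposited table. For comparison, the lowest and highest such medians of the 11 clusters were 3.10 for cluster 9 and 11.1 for cluster 10, by the authors' deposited table. A fold of at least 10 was reached by 288 of the raised genes of cluster 5, or 36.4%, and a fold of at least 50 by 28, in the authors' deposited table. At the threshold, the raised gene of lowest fold was Gm36423 at 2.001, and the gene of highest fold just below it, with a p that passed, was Rps19-ps2 at 1.998, in the authors' deposited table.

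**Figure D1:**
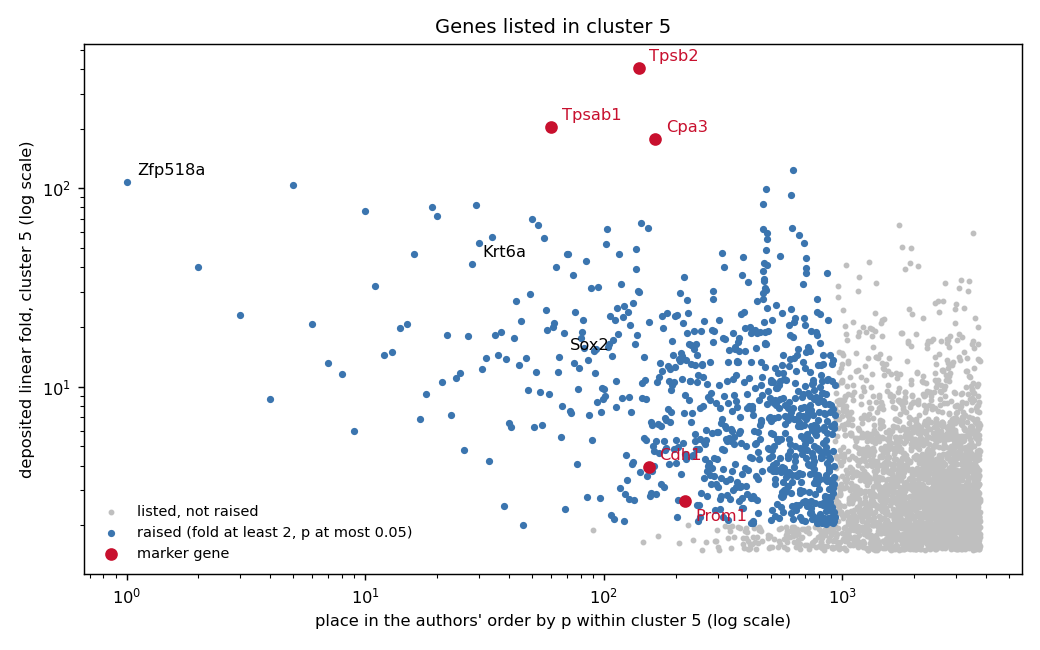
Each point is 1 of the 3765 genes listed in cluster 5; the horizontal axis is the gene's place when the genes are ordered by deposited p, and the vertical axis is the deposited linear fold, both on log scales. Grey points are listed genes that were not raised, blue points are raised genes and red points are the 5 markers. Tpsb2 at 404, Tpsab1 at 203 and Cpa3 at 178 stand above every other gene, while Cdh1 at 3.94 and Prom1 at 2.65 lie low among the raised genes.

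The 3 granule proteases among the markers had the 3 largest folds of cluster 5. Tpsb2, which encodes a tryptase, had a fold of 404 and was place 140 in the order by p in the authors' deposited table. Tpsab1, the second tryptase gene, had a fold of 203 and was place 60 in the authors' deposited table. Cpa3, the mast cell carboxypeptidase, had a fold of 178 and was place 164 in the authors' deposited table. None of the 3 was listed in any of the other 10 clusters. In the GRCm38 annotation, Tpsab1 lies on the minus strand at chr17:25343245-25345562 and Tpsb2 on the plus strand at chr17:25366305-25369098, 20743 bases apart. Their transcripts aligned over 822 bases at 76.9% identity, and the longest identical run was 39 bases. Reads lying within such a run could be counted for either gene, and how far this mixed the counts of both tryptases was not tested. Cpa3 lies elsewhere, on the minus strand at chr3:20215620-20242181.

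Another granule gene, a chymase, was raised as well. Mcpt4, a chymase of connective tissue mast cells, had a fold of 10.5 in cluster 5, against 1.68 in cluster 3 and 3.75 in cluster 7, where it was not raised, in the authors' deposited table. It lies on the minus strand at chr14:56059629-56062313. The mucosal chymase Mcpt2 had a fold of 8.04 in cluster 5 and 1.98 in cluster 2, and was raised in neither, in the authors' deposited table. Mcpt1, another mucosal chymase, was not listed in cluster 5 and had a fold of 14.7 in cluster 2, where it was not raised, in the authors' deposited table. Mcpt4 shares 85.8% of 959 aligned transcript bases with Mcpt1 and 80.1% of 953 with Mcpt2. The longest identical runs were 46 and 33 bases. Whether reads in such runs mixed the counts of these 3 genes was not tested.

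Among the 5 markers and Mcpt4, RefSeq promoters were available for Cpa3, Mcpt4 and Prom1. Those of Cpa3 and Mcpt4 are shown with 2 others, to set the protease promoters against other raised genes. The others are Sox2, an epithelial transcription factor raised in cluster 5, and Zfp518a, the first raised gene by p. The Prom1 promoter is not shown. Each is the 250 bases before the annotated start in RefSeq's GRCm38.p6, written 5′ to 3′ on the gene's strand. Capitals mark a hexamer of the kind bound by GATA factors. The hexamers searched on both strands were AGATAA, the variant TGATAA, the variant AGATAG and the variant TGATAG.
Cpa3, chr3:20242182-20242431, minus strand: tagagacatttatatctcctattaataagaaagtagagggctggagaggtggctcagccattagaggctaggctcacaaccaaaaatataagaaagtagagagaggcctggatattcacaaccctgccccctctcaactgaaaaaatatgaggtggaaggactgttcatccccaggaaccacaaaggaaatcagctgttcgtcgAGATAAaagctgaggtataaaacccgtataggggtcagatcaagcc
Mcpt4, chr14:56062311-56062560, minus strand: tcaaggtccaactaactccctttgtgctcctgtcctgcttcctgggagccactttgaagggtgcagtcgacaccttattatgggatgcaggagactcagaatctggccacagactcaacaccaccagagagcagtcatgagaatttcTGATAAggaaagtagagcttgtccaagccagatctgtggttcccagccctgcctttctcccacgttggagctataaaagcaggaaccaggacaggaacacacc
Sox2, chr3:34649745-34649994, plus strand: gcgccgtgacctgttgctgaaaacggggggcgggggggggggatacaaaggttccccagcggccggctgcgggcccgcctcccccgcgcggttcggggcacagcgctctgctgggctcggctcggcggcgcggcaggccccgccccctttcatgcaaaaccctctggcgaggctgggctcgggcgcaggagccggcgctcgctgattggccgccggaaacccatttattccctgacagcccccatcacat
Zfp518a, chr19:40894455-40894704, plus strand: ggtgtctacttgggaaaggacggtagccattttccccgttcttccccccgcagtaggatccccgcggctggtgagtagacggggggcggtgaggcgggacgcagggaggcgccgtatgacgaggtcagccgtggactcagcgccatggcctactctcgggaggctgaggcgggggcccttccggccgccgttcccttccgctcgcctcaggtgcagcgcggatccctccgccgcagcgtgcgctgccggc
The Cpa3 promoter held AGATAA at position -46 and the Mcpt4 promoter held TGATAA at position -103, where negative positions count bases back from the start and give the hexamer's first base. Sox2 and Zfp518a held none of the 4 hexamers. Any of the 4 was found in 18.2% of the 12176 promoters of named genes and in 17.5% of the 544 promoters of genes raised in cluster 5, which is near that background. The E-box CATGTG and the E-box CACGTG, both of the kind bound by MITF, were in none of the 4 promoters shown, and were in 8.03% and 7.91% of the promoters of named genes. The protease promoters were poor in CpG, with 3 in Cpa3 and 2 in Mcpt4, against 9 in Prom1, 27 in Sox2 and 28 in Zfp518a. The median was 16 over the genes raised in cluster 5 and 14 over all named genes. A match of letters is a description and not a binding site.

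The rest of the granule list was thin. Of its 15 genes, 12 were named in any cluster, 6 were listed in cluster 5 and 4 were raised, in the authors' deposited table. Because Tpsb2, Tpsab1 and Cpa3 are markers of the cluster, their count is a description; without them, 3 of 9 named members were listed and 1 was raised, beside 20.6% and 4.32% of all named genes, in the authors' deposited table. Tph1, which makes serotonin, had a fold of 3.82 in cluster 5 without being raised, and was raised at 4.24 in cluster 6 and 4.60 in cluster 9 of the authors' deposited table. Hdc, which makes histamine, was not listed in cluster 5 and had a fold of 39.4 in cluster 10 of the authors' deposited table. Slc18a2, the vesicular amine transporter, was likewise not listed there and had a fold of 8.33 in cluster 4 of the authors' deposited table. Srgn, the serglycin that binds granule proteases, was raised in clusters 2, 4, 8 and 10, at folds from 2.30 to 5.47, and was not listed in cluster 5 of the authors' deposited table. The lipid mediator synthases Ltc4s and Hpgds were not listed in cluster 5 either. Named under no cluster were the tryptase Tpsg1, which starts 175 bases after the end of Tpsb2, and the proteases Cma1 and Ctsg.

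No gene from the list of mast cell receptors and regulators was listed in cluster 5. Of 16 such genes, 9 were named in the authors' deposited table, and 0 of the 9 were listed or raised in cluster 5, beside 20.6% listed and 4.32% raised of all named genes. With so few genes, 0 raised is near that background. Kit, the receptor for stem cell factor, was raised at 5.32 in cluster 4 and 4.26 in cluster 6 of the authors' deposited table. Il1rl1, the receptor for interleukin 33, was raised at 181 in cluster 11 of the authors' deposited table. Fcer1g, a signalling chain of the IgE receptor shared by several myeloid cells, was raised at 6.6 in cluster 4, and Mitf, a transcription factor of mast cells and melanocytes, at 4.52 there in the authors' deposited table. Lat2, Btk, Syk, Rab27b and Cd63, which serve signalling and granule release, were listed in other clusters only. Fcer1a and Ms4a2, the remaining chains of the IgE receptor, the receptors Mrgprb1, Mrgprb2 and Mrgprx2, and the transcription factors Gata1 and Gata2 are named under no cluster. The listed mast cell genes of cluster 5 all come from the granule list. With 0 of 9 near background and the rest named under no cluster, the receptor and regulator list says little about what the cells are. The cluster is called by its number here. The table does not say whether granule and epithelial genes were detected in the same cells.

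**Figure D2:**
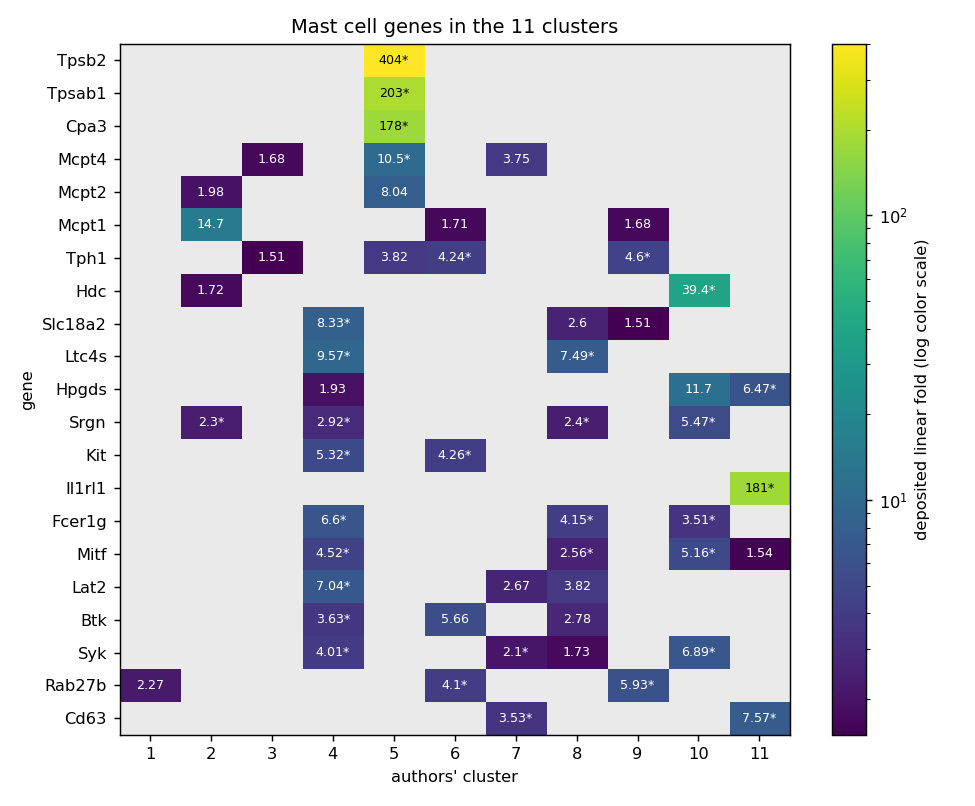
Rows are the mast cell genes named in the table and columns are the 11 clusters; each cell gives the deposited linear fold, colored on a log scale, an asterisk marks a raised gene and grey means not listed. The column of cluster 5 holds Tpsb2, Tpsab1, Cpa3, Mcpt4, Mcpt2 and Tph1 and is grey for all 9 receptor and regulator genes, from Kit down.

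Basophil and eosinophil genes gave no raised member, which for so few genes is near the 4.32% raised of all named genes. The listed share of all named genes was 20.6%. Of 5 named genes, 2 were listed in cluster 5: Mcpt8, a basophil protease, at 5.81, and the cytokine Il4 at 3.0, in the authors' deposited table. Both were raised in cluster 6 instead, Mcpt8 at 4.24 and Il4 at 17.4, in the authors' deposited table.

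Epithelial genes were broadly listed in cluster 5 at modest folds, as they were in clusters 3, 6 and 9. All 13 genes of the general epithelium list were named, 9 were listed in cluster 5 and 2 were raised, in the authors' deposited table. The shares of all named genes were 20.6% listed and 4.32% raised. One of the raised genes, Cdh1, is a marker of the cluster, so the raised count is a description. Of the same 13, 9 were listed in cluster 3, 10 in cluster 6 and 11 in cluster 9. Those clusters list 5474, 6664 and 7131 genes, against 3765 for cluster 5. Cdh1, the E-cadherin of adherens junctions, had a fold of 3.94 in cluster 5 and 2.74 in cluster 7, where it was also raised, and 1.79 in clusters 6 and 9 of the authors' deposited table. It lies on the plus strand at chr8:106603351-106670246. Krt7, a keratin of simple epithelium, was raised at 2.24 in cluster 5 and at 2.14 in cluster 3 of the authors' deposited table. Esrp1, a splicing regulator of epithelial cells, had a fold of 11.97, was listed in cluster 5 alone and was place 3327 by p, so it was not raised, in the authors' deposited table. The tight junction genes Ocln at 5.20 and Cldn3 at 3.76, the transcription factor Elf3 at 3.41, Krt19 at 3.10, the adhesion molecule Epcam at 2.34 and the transcription factor Grhl2 at 1.86 were listed without being raised in the authors' deposited table. Krt8 and Krt18, the keratin pair of simple epithelium, and the claudins Cldn4 and Cldn7 were not listed in cluster 5. Other clusters had more raised members of this list in the authors' deposited table: cluster 9 had 7 and cluster 6 had 5, with raised shares over all genes several times that of cluster 5, and cluster 3, with a share close to that of cluster 5, also had 5.

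Progenitor and foregut genes included some of the larger epithelial folds. Sox2, a transcription factor of stomach and stem cells, had a fold of 14.1 in cluster 5 and 1.55 in cluster 3, where it was not raised, in the authors' deposited table. Foxa2, a pioneer factor of endoderm, had a fold of 13.3 in cluster 5 and 2.33 in cluster 3, raised in both, in the authors' deposited table. Foxa1 was raised at 2.76 in cluster 5 and 5.64 in cluster 2 of the authors' deposited table. The fourth raised member of this list of 19 named factors was Foxq1, at 2.45 in cluster 5 and 3.44 in cluster 6 of the authors' deposited table. Gata6, an endodermal factor, had a fold of 8.95 in cluster 5 without being raised in the authors' deposited table. Prom1, a membrane protein of progenitor cells also known as CD133, was raised at 2.65 in cluster 5, beside 2.15 for cluster 3, 2.97 for cluster 6 and 2.09 for cluster 9 of the authors' deposited table. It is thus a marker that several clusters share, and its call in cluster 5 is lost at a fold of at least 3. It lies at chr5:43993620-44102032 on the minus strand, and a processed transcript on that strand within it, Gm42716, was raised at 3.89 in cluster 5 of the authors' deposited table, so their counts could be mixed. Of the 12 named stem and dysplasia genes, 5 were listed and 2, Sox2 and Prom1, were raised in the authors' deposited table. Prom1 is a marker of the cluster, so this count too is a description. Lgr5, a stem cell receptor, stood at 3.5 and Cd44 at 1.66 without being raised.

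Junction and surface genes added further raised members, in lists to be read beside 4.32% raised and 20.6% listed of all named genes. Of 17 named tight junction genes, 2 were raised in cluster 5: Cldn2, a pore-forming claudin, at 6.85 and place 17 by p, and Cldn18, the claudin of stomach, at 3.32, in the authors' deposited table. Of 14 named genes of adherens junctions and desmosomes, 3 were raised in the authors' deposited table: the desmosomal cadherin Dsc2 at 8.0, the cadherin Cdh17 at 4.37 and Cdh1. Dsc2, Cldn2, Cldn18 and Cdh17 were also raised in cluster 9, at folds from 2.08 to 2.83, in the authors' deposited table. Itga6, a laminin receptor chain, was the raised member among 11 named basement membrane genes, at 3.13, in the authors' deposited table. It was also raised in cluster 2, at 2.07. Muc20, a membrane mucin, was raised at 11.2 and was 1 of 6 named mucin genes, in the authors' deposited table. Cluster 9 had it raised as well, at 2.31. Car2, a carbonic anhydrase, was raised at 7.19 and place 23, as 1 of 17 named genes of fluid and ion transport, in the authors' deposited table. It was also raised in clusters 3, 6 and 9, at folds from 2.03 to 2.49. Those clusters had 7, 11 and 10 raised members of this list, with 4.0%, 20.3% and 26.6% raised of all named genes. The gap junction genes Gja4 at 18.2 and Gjb1 at 15.1 were raised too in the authors' deposited table. They come from a list of 8 named connexins, both of its listed members, chosen after their values were seen. Clusters 9 and 11 each had 3 raised connexins.

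**Figure D3:**
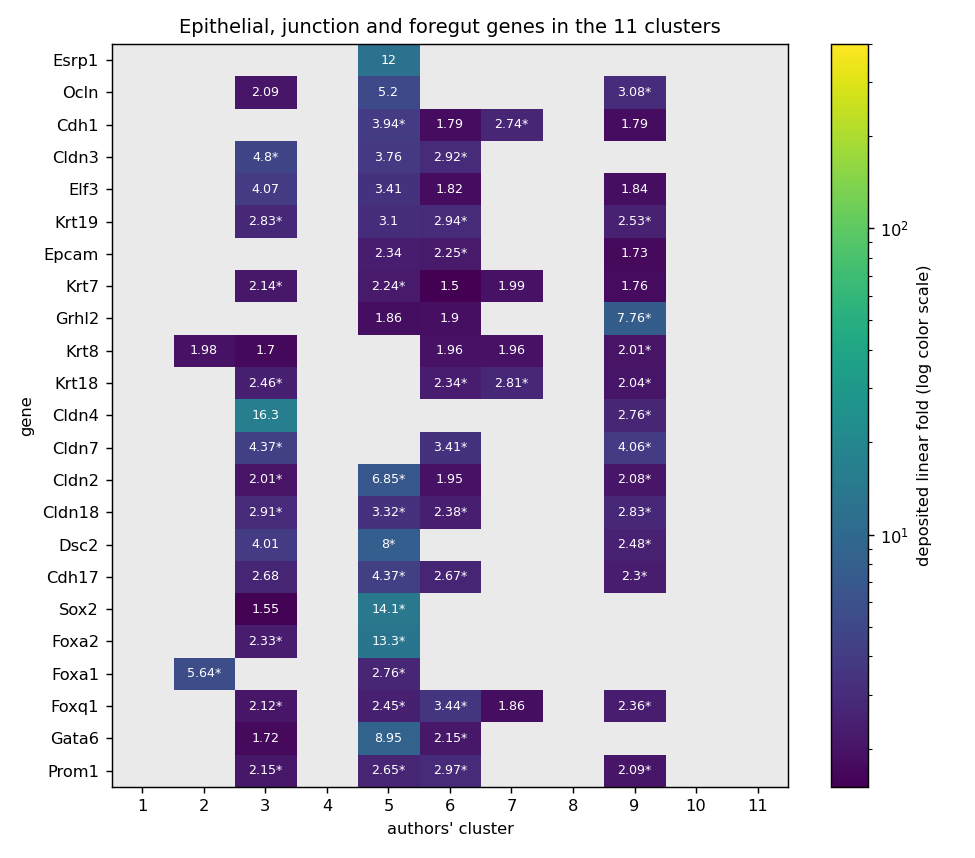
Rows are epithelial, junction and foregut genes and columns are the 11 clusters, with the deposited linear fold in each cell on a log color scale, an asterisk for a raised gene and grey for a gene not listed. Cluster 5 holds the larger fold for Sox2, Foxa2, Cldn2 and Dsc2, while Krt8, Krt18, Cldn4 and Cldn7 are grey there and filled in clusters 3 or 9.

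Some genes of squamous epithelium were raised in cluster 5 beside those of glandular epithelium, while others were not listed there. Krt6a, a keratin of stratified epithelium, had a fold of 41.3 and place 28 by p, against 1.55 in cluster 6, where it was not raised, in the authors' deposited table. It was the larger of the 2 raised members among 11 named keratins. A list of squamous differentiation genes, chosen after values were seen, had 15 named members, of which 5 were listed in cluster 5 and all 5 of these were raised, in the authors' deposited table. Besides Krt6a they were Flg, the filaggrin of cornified cells, at 98.8, the protease Tmprss11e at 23.8, the cation channel Trpv3 at 7.22 and the cornified envelope gene Sprr1a at 3.74 in the authors' deposited table. Flg is 1 of 23 raised genes that share a single deposited p. Sprr1a had a fold of 5.39 in cluster 7 without being raised there in the authors' deposited table. By the authors' deposited table, cluster 5 thus had 5 of 15 with 4.32% raised of all named genes, cluster 3 had 4 with 4.0% and cluster 6 had 3 with 20.3%. Cluster 3 listed 8 of the 15 squamous genes, more than the 5 listed in cluster 5.

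Among signalling genes, a BMP ligand and a pair of BMP receptors were raised. Of 20 named genes of TGF-beta and BMP signalling, 6 were listed and 3 raised in the authors' deposited table. The ligand Bmp4 had a fold of 5.97, against 2.49 in cluster 6 and 2.48 in cluster 9 of the authors' deposited table. Its receptor Bmpr2 had a fold of 18.9, place 37 by p, and was listed in no other cluster in the authors' deposited table. The receptor Bmpr1a was raised at 3.10 in cluster 5, beside 2.42 for cluster 9 and 2.12 for cluster 2, by the authors' deposited table, and its call in cluster 5 is lost at a p of at most 0.01. Hedgehog genes, a list chosen after values were seen, had 3 raised members of 15 named in the authors' deposited table: Hhat, which acylates the ligand, at 20.5, the receptor Ptch1 at 3.54 and the transducer Smo at 2.21. For cluster 11, the authors' deposited table gives 7 raised hedgehog genes, with 17.0% raised of all named genes there and 4.32% in cluster 5.

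The NOTCH, WNT, YAP and EGFR lists had 1 or 2 raised members each, beside 4.32% raised of all named genes. Notch3, a Notch receptor, had a fold of 21.1, was listed in no other cluster and was the raised member of 14 named NOTCH genes in the authors' deposited table. Axin2, a WNT target and feedback gene, had a fold of 10.8 in cluster 5 and was raised at 3.39 in cluster 6, and was the raised member of 19 named WNT genes, in the authors' deposited table. The calls of Notch3 and Axin2 are both lost at a p of at most 0.01. Tead1, a partner of YAP, was raised at 4.06 and Ly6a, the surface protein Sca-1, at 2.92, as 2 of 13 named genes of YAP and the fetal-like state, in the authors' deposited table. Phlda1 was the raised member of 19 named genes of EGFR ligands and MAPK feedback, at 2.52, beside 2.89 for cluster 3, 2.35 for cluster 6 and 2.44 for cluster 9, where it was also raised, by the authors' deposited table. Its call in cluster 5 is lost at a p of at most 0.01 and at a fold of at least 3. None of 12 named RAS and RAF genes was raised in cluster 5, with 3 listed.

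A few division genes were raised in cluster 5. Of 19 named G2/M genes, 7 were listed and 2 raised in the authors' deposited table: the kinetochore protein Cenpf at 6.25 and the kinase Plk1 at 5.33. Aurka, another mitotic kinase, had a fold of 50.5 without being raised in the authors' deposited table. Of 19 named S phase genes, 5 were listed and 0 raised in the authors' deposited table. By comparison, cluster 11 had 16 raised G2/M genes and 10 raised S phase genes, with 17.0% raised of all named genes there, in the authors' deposited table. The cyclins are a list by gene family, not by a role in division, and were also chosen after values were seen. Of 22 named, 5 were raised in the authors' deposited table: Ccnjl at 38.5, Ccnk at 6.22, Ccng2 at 5.98, Ccnh at 5.40 and Ccnd1 at 2.89. Clusters 4, 9 and 11 had 5, 6 and 5 raised cyclins. The raised shares of all named genes there were 18.6%, 26.6% and 17.0%, against 4.32% in cluster 5.

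Polycomb genes, which encode the complexes that place repressive histone marks, were a further group chosen after values were seen. Of 29 named members, 12 were listed and 6 raised in cluster 5 of the authors' deposited table. The chromobox proteins that read the mark supplied 3 of the 6: Cbx2 at 29.2, Cbx7 at 5.65 and Cbx6 at 3.47 in the authors' deposited table. Phc2, a subunit of the same complex, stood at 14.5, the methyltransferase Ezh2 at 7.29 and the ubiquitin ligase Rnf2 at 2.74, all raised, in the authors' deposited table. Clusters 6 and 9 each had 8 raised Polycomb genes, with 20.3% and 26.6% raised of all named genes there against 4.32% in cluster 5, by the authors' deposited table. None of the 21 named members of a broader list of chromatin modifiers was raised in cluster 5, with 5 listed.

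**Figure D4:**
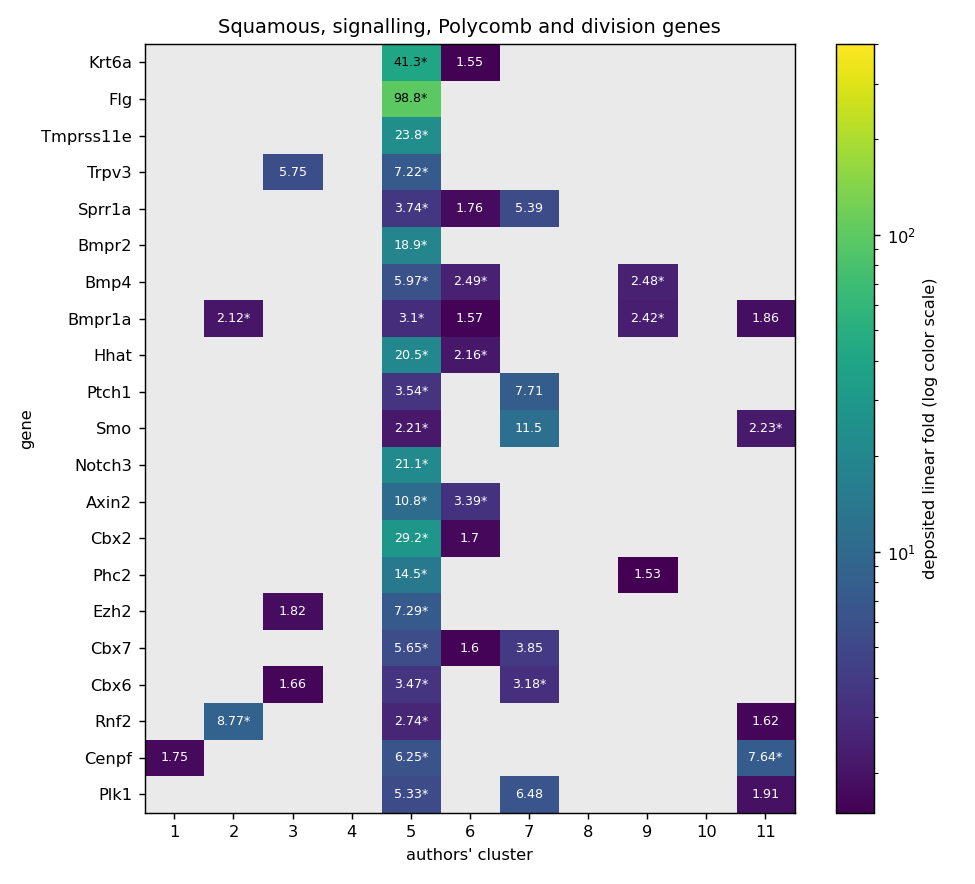
Rows are squamous, BMP, hedgehog, NOTCH, WNT, Polycomb and division genes, most of them chosen after their values were seen, and columns are the 11 clusters; cells give the deposited linear fold on a log color scale, asterisks mark raised genes and grey means not listed. Each gene shown is raised in cluster 5, and Flg, Tmprss11e, Bmpr2 and Notch3 have no value in another column.

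Genes of protein folding and secretion had a few raised members each, beside 4.32% raised of all named genes. Of 12 named genes of the unfolded protein response, 4 were listed and 3 raised in the authors' deposited table: the disulfide isomerase Pdia4 at 6.14, the stress sensor Ern1 at 2.33 and the chaperone Hspa5 at 2.10. Dnajb9, a co-chaperone of the same compartment, had a fold of 9.19 without being raised in the authors' deposited table. The heat shock genes Hspa1b at 4.09 and Hsph1 at 3.72 were the raised members of 13 named in the authors' deposited table. C1galt1c1, the chaperone needed to extend mucin-type sugars, was raised at 13.0, and Galnt4, which starts such sugars, at 3.58, as 2 of 18 named glycosyltransferase genes, in the authors' deposited table. Galnt4 lies on the same strand within Poc1b, which was raised at 47.2 by the authors' deposited table, so their counts could be mixed. Hmgcs1 at 3.42 and the regulator Srebf2 at 3.16 were the raised members of 17 named cholesterol genes in the authors' deposited table. Cluster 6 had 10 raised cholesterol genes and 9 raised glycosyltransferase genes, with 20.3% raised of all named genes there. Cluster 9 had 7 raised heat shock genes, with 26.6%. For the unfolded protein response, clusters 8 and 10 each had 2 raised genes in the authors' deposited table. Cluster 10 listed 10 of the 12 genes, against 4 in cluster 5, with 4.90% raised of all named genes there. Of the 3 calls in cluster 5, only 1 remained at a fold of at least 3.

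Some mitochondrial genes were raised in cluster 5. Of 75 named mitochondrial ribosomal protein genes, 7 were raised in cluster 5, or 9.33%, and of 42 named mitochondrial carrier genes 6 were raised, or 14.3%, beside the 4.32% of all named genes, in the authors' deposited table. Both families were picked after values were seen. Clusters 6, 9 and 11 had 23, 22 and 12 raised mitochondrial ribosomal genes, and 10, 12 and 7 raised carriers. The raised shares of all named genes there were 20.3%, 26.6% and 17.0%. Mrps6 was place 4 by p with a fold of 8.66 and was listed in no other cluster in the authors' deposited table. The carriers Slc25a32 at 44.8, Slc25a14 at 24.8 and Slc25a48 at 18.9 were also listed in cluster 5 alone in the authors' deposited table. Of 19 named nuclear genes of oxidative phosphorylation, Ndufb9 was the raised member at 3.31 in the authors' deposited table. Rpl19 was the raised member of 20 named cytoplasmic ribosomal protein genes, at 2.20, in the authors' deposited table.

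Markers of other cell types were mostly not listed in cluster 5. In the authors' deposited table, no member was listed there of 10 named macrophage genes, 8 neutrophil genes, 7 T and NK cell genes, 11 fibroblast genes, 6 erythroid genes, 5 nerve and glia genes, 4 platelet genes and 5 goblet and intestinal genes, beside 20.6% listed of all named genes. Lists of so few genes may lack a listed member at that background, and a gene not listed is not shown to be absent. Of 7 named surface mucous genes 2 were listed, Vsig1 at 3.20 and Ctse at 1.77, in the authors' deposited table. Of 11 named neck and metaplastic gland genes 4 were listed. Neither list had a raised member, which in lists so short is near the 4.32% raised of all named genes. Only 1 chief cell gene and 1 parietal cell gene were named, and 0 enteroendocrine genes. The parietal gene, Clic6, was listed at 3.09 without being raised. The tuft and dendritic cell counts below are likewise to be read beside 4.32% raised and 20.6% listed. Of 13 named tuft cell genes, Lrmp was listed at 4.0 and 0 were raised in the authors' deposited table. Of 9 named dendritic cell genes, Zbtb46 at 8.09 and Itgax at 2.38 were listed and 0 raised in the authors' deposited table. No member was listed of 11 named genes of epithelial-mesenchymal transition, 15 immediate-early genes and 7 MHC class II genes in the authors' deposited table. Over the 55 lists, 44 of 631 named members were raised in cluster 5, or 6.97%, in the authors' deposited table. A gene was counted in every list that holds it, so Cdh1, Krt7 and Sox2 are repeated among the 44. The 44 also include the 5 markers, which were chosen as markers of the cluster. The 6.97% is therefore a description, and cannot be compared directly with the 4.32% of all named genes. In 32 lists there was no raised member.

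**Figure D5:**
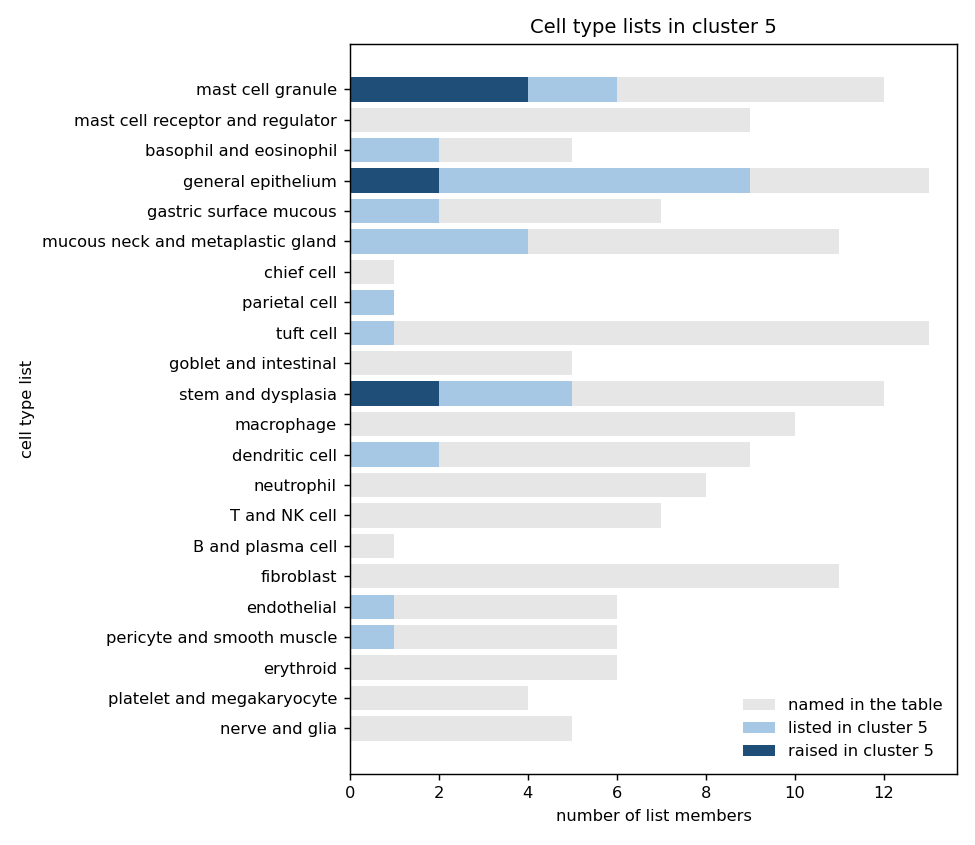
Bars count the members of each cell type list that the table names in any cluster (light grey), lists in cluster 5 (light blue) and calls raised in cluster 5 (dark blue). Raised members occur in 3 lists: 4 of 12 mast cell granule genes, 2 of 13 general epithelium genes and 2 of 12 stem and dysplasia genes. These 3 lists hold the 5 markers, which were chosen as markers of the cluster, so the counts are a description.

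By p, the leading genes of cluster 5 were neither mast nor epithelial markers. In the authors' deposited table, the zinc finger gene Zfp518a came first, and its fold was 108. The GRCm38 annotation places it at chr19:40894705-40917947 on the plus strand. It was followed by the pseudokinase gene Scyl3 at 39.9, the transcription factor Sp2 at 23.1, Mrps6 at 8.66 and the mitochondrial reductase gene Mtarc1 at 104 in the authors' deposited table. Next in the authors' deposited table were Hook1, an adaptor of microtubule transport, at 20.7, the tropomyosin Tpm4 at 13.1, the spliceosomal Gpkow at 11.5, Ccng2 at 5.98 and the predicted gene Gm44274 at 77.2. The first 15 closed with the co-chaperone Dnajc12 at 32.2, the nucleosome-binding Hmgn3 at 14.4, and the unnamed genes Gm45866 at 14.9, Gm37024 at 19.7 and 6330403L08Rik at 20.7 in the authors' deposited table. Of these 15, 6 were listed in no other cluster.

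By size, the 15 largest folds among raised genes with a regular name were all listed in cluster 5 alone. After the 3 proteases came the sugar transporter Slc5a9 at 124, Zfp518a, Mtarc1, Flg, the pseudouridine synthase relative Pus7l at 83.3 and the exchange factor Rasgef1a at 82.2 in the authors' deposited table. The vomeronasal receptor Vmn2r2 stood at 80.2, the tetraspanin relative Tm4sf20 at 72.3, the gamma tubulin Tubg2 at 63.2, the transporter Slc6a21 at 62.2, the copper pump Atp7b at 58.0 and the chromatin subunit Bcl7c at 56.0 in the authors' deposited table. Among raised genes, 23 shared a single deposited p and took places 463 to 485 in the authors' deposited table. Their folds ran from 8.14 to 98.8 with a median of 31.6, and 11 were predicted genes, in the authors' deposited table. Flg, Pus7l, Slc6a21 and Ccnjl are among the 23. The sources used here do not give how many cells carried each gene, and the part of rare detection in these folds was not tested.

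By annotation, 83.0% of the 778 raised genes found in GENCODE were protein coding, against 78.6% of all named genes, and 3.21% were pseudogenes, against 5.92%. Predicted or unnamed genes made up 130 of the 792. Of 125 of these with coordinates, 77 overlap a protein-coding gene, 25 of them on the same strand, and 9 overlap a coding gene that was itself raised. There were 15 pairs of raised genes that overlap, 11 on opposite strands and 4 on the same strand. Gm45516, inside Spock3 on the same strand, had a fold of 52.9 against 3.60 for Spock3, and Gm49189, antisense to Mapk1ip1l, had 46.6 against 5.30, in the authors' deposited table. The sources used here do not say whether counting used the strand, so the values of such pairs are uncertain.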

How the data were processed

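Cells of 1 cystic and 1 tubular adenocarcinoma were made into inDrop libraries, per the labels' protocols. The submitters' processing notes name mm10, STAR 2.7.3a, Partek and DESeq2 3.5, without saying what each did. The sources used here do not give cell filters, doublet treatment, the clustering or cluster sizes. The 1 table used is the authors' own comparison of 11 clusters: per the file headers it gives a linear fold (a ratio) and a p-value for each gene and cluster, as the authors deposited them, with 0 columns of per-sample values. The reference of the fold and the test behind the deposited p-value are not stated.

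Genes were called raised where the deposited fold was 2 or more and the p 0.05 or less, and counted by list against all 18319 named genes; no test was run. The count scripts were tested on simulated data. The members, the 55 gene lists and the rule for named genes were chosen with earlier results of these data known, and 6 further lists, the gene families and some single genes after their values were seen. A gene of the Polycomb list is not reported here and is left out of its counts. The rule named the 5 markers, the mast and general epithelium lists, the first 15 raised genes by p, the 15 largest folds without predicted and ribosomal genes, and up to 4 raised members of each other list. Gene positions and types came from the GENCODE annotation of GRCm38, the build mm10 names, for 17925 of 18319 names, and are 1-based. Promoters came from RefSeq for GRCm38.p6, the 250 bases before the start. Transcripts were compared by local alignment with Biopython 1.88. Alternatives were other thresholds of fold and p, and leaving out predicted, ribosomal, p-sharing or overlapping genes, the last pair added after seeing the data. Python 3.11.15 and pandas 2.3.3 were used.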

Additional observations from a re-analysis of the deposited data

How the results depend on the processing

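The count of raised genes of cluster 5 was 792 and lay between 546 and 929 at a fold of at least 1.5 or at least 3, at a p of at most 0.01, and without predicted, p-sharing or overlapping genes, but reached 2977 with no limit on p. Raised mast granule genes numbered 4 under each limit of fold and p and 6 with no limit on p, and receptor and regulator genes numbered 0 under all of these. General epithelium went from 2 to 1 at a fold of at least 3 and to 8 with no limit on p, and raised members over the 55 lists from 44 to 136 with no limit on p. A looser limit adds genes and a stricter one removes them, by construction: 546 came from the p of at most 0.01 and 929 from the fold of at least 1.5. Among members of the 55 lists, the calls of Axin2, Bmpr1a, Cdh17, Cldn18, Galnt4, Hmgcs1, Notch3, Pdia4, Phlda1 and Rpl19 are lost at a p of at most 0.01, and those of Ern1, Foxa1, Foxq1, Hspa5, Krt7, Ly6a, Phlda1, Prom1 and Rpl19 at a fold of at least 3. In the added lists, Cbx7 and Ezh2 are lost at the stricter p, and Ccnd1, Rnf2 and Smo at the higher fold. Leaving out a library could not be done, since the table merges both. No paired analysis was possible because each tumor type has 1 library and the table holds no values per sample. The sources used here do not give depth or cell numbers, and how far they limit a fold is unknown.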

Other observations

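Xist, the RNA that silences an X chromosome in female cells, was raised at 2.89 in cluster 5 and listed without being raised in clusters 3, 6, 7 and 9, at folds from 1.51 to 1.72, in the authors' deposited table; both samples are labelled female. Across chromosomes, the share of named genes raised in cluster 5 ran from 3.39% on chromosome 3 to 6.52% on chromosome 18 over the autosomes, and was 5.58% on the X chromosome and 0 of 9 named genes on the Y chromosome, in the authors' deposited table.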
